A study of Mus musculus with 36 samples.

Results

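The 45 genes described here encode the core machinery of DNA replication and mitosis, and their messenger RNA was followed through osteoclast formation in cultured mouse cells. They were taken by symbol from the table of 24950 genes, all 45 were found there, and all 45 were among the 11863 genes that passed a filter on low values. The cells were bone marrow derived monocytes or macrophages (BMMs) of C57BL/6 mice with 4 Irf8 genotypes, which the labels name gWT, gKO, cWT and cKO without spelling out the prefixes. For each genotype 3 libraries were made at day 0 (BMMs with the growth factor M-CSF), at day 3 (labelled PreOCs) and at day 6 (labelled Mature OCs), 36 libraries in all, and at the 2 later days the medium held M-CSF (20 ng/ml) and RANKL (40 ng/ml), the cytokine that induces osteoclasts. Male and female mice were used. The labels give neither a Cre driver for the c genotypes nor the number of mice behind a culture. Nor do they tie a library to an animal, so p-values measure the spread between these libraries, which may be technical.

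DNA replication starts when licensing factors load the MCM helicase onto origins, after which S phase kinases fire the origins and a sliding clamp holds the polymerases to the template. Cyclin and kinase pairs then drive entry into mitosis, where a spindle checkpoint holds back the anaphase-promoting complex until the chromosomes are attached. The genes of S phase are classic targets of the E2F factors, and those of mitosis of the MuvB, B-MYB and FOXM1 complexes. Osteoclasts form by fusion of precursors that proliferate under M-CSF and then leave the cell cycle.

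The 45 genes fall into 7 roles. Origin licensing and the replicative helicase hold 11 (Cdc6, Cdt1, Mcm2 to Mcm7, Cdc45, Gins1 and Gins2), and the sliding clamp with nucleotide supply holds 5 (Pcna, Rrm1, Rrm2, Tk1 and Tyms). There are 4 cyclins and kinases of S phase (Ccne1, Ccne2, Cdk2 and Ccna2) and 6 transcription factors (E2f1, E2f2, E2f7, E2f8, Mybl2 and Foxm1). The mitotic genes are 8 mitotic kinases and partners (Cdk1, Ccnb1, Ccnb2, Plk1, Aurka, Aurkb, Birc5 and Tpx2), 7 of chromosomes, kinetochores and spindle (Mki67, Top2a, Cenpa, Cenpe, Ndc80, Kif11 and Kif20a), and 4 of the spindle checkpoint and anaphase (Bub1, Bub1b, Cdc20 and Ube2c). The first 4 roles are called the replication side below and the last 3 the mitotic side.

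Promoters were compared because most of these genes moved in the same direction at each step in gWT. RefSeq's promoter table (build GRCm38.p6, which is not the mm9 build of the expression table) held 36 of the 45 genes. The 150 bases just before the annotated start are shown, 5′ to 3′ on the gene's strand, for 3 genes of the replication side (Mcm5, Mcm6 and Mybl2, the last with the largest change at both gWT steps) and 3 of the mitotic side (Cdk1, Top2a and Ube2c). Capitals mark, on either strand, the E2F strings TTTCCCGC and TTTGGCGC, the CHR string TTTGAA (cell cycle genes homology region) and the CCAAT box; no marked strings overlap. The windows lie at chr8:75109359-75109508 on the plus strand (Mcm5), chr1:128359706-128359855 on the minus strand (Mcm6), chr2:163054485-163054634 on the plus strand (Mybl2), chr10:69352913-69353062 on the minus strand (Cdk1), chr11:99024190-99024339 on the minus strand (Top2a) and chr2:164769779-164769928 on the plus strand (Ube2c).
Mcm5: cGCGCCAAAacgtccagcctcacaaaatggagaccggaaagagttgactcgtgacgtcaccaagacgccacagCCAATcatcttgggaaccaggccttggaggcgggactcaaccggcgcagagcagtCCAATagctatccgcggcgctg
Mcm6: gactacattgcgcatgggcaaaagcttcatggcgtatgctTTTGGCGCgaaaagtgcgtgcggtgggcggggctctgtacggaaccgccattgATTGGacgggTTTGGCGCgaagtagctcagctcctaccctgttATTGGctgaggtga
Mybl2: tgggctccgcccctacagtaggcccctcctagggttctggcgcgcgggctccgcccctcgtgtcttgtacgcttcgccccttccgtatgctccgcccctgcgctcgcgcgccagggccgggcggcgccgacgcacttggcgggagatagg
Cdk1: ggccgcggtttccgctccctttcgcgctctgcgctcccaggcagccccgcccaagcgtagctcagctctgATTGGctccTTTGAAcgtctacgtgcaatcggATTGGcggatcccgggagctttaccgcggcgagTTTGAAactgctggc
Top2a: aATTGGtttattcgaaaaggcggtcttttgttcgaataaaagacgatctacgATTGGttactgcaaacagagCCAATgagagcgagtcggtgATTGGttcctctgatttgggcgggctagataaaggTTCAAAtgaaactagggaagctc
Ube2c: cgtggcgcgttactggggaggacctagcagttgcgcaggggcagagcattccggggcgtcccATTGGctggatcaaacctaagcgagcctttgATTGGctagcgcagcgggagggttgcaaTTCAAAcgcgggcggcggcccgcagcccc

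In the 250 bases before the start, an E2F string stood in 6 of 38 promoters of the genes described (15.8%, some genes having more than 1 promoter) and in 1.3% of the 32851 promoters of the table. All 6, those of Cdc6, Mcm5, Mcm6, Mcm7, Cdk2 and E2f7, were on the replication side (6 of 22, 27.3%), against 0 of 16 on the mitotic side. CHR stood in 7 of 16 mitotic promoters (43.8%), in 4 of 22 on the replication side (18.2%) and in 16% of all. CCAAT stood in 14 of 16 (87.5%), in 15 of 22 (68.2%) and in 33.8% of all. A window of 100 bases held an E2F string in 1 of the 38 promoters (2.63%, against 0.584% of all), so that share depends on the window. These are matches of letters and not binding sites, and Mybl2 has none of them in the window shown. Only these exact strings were searched, so variants of them, in Mybl2 as elsewhere, would be missed.

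Depth was 34510144 to 92548145 alignments per library, and values are RPKM, reads scaled to the length of the gene model and the size of the library, as deposited. A log2 change is a difference of group means of log2(RPKM + 1), given ± SE. A gene is called where limma's moderated test gives an adjusted p under 0.05 over the 11863 genes. Irf8, the gene named in the genotypes, was called lower in the knockout label in 1 of 6 comparisons within a day. It was called higher in gKO than in gWT at day 3 (log2 1.16 ± 0.12), in cKO than in cWT at day 0 (1.81 ± 0.12) and at day 3 (3.17 ± 0.12), and lower in cKO at day 6 (-1.20 ± 0.12). It was not called between gKO and gWT at day 0 (57.4 and 63.6 RPKM) or day 6 (4.97 and 5.58 RPKM). The RPKM values do not show which part of Irf8 was read. The complement gene C1qa, at 758 RPKM in gWT and 1.799 in gKO at day 0, stood at 2.34 in cKO and 183 in cWT at day 0, but at 104 RPKM in cKO and 6.699 in cWT at day 6. The file header states that the annotation of the day 6 c libraries had been corrected, so genotypes of the c set are given as labelled. Irf8 and C1qa both reverse there. The day 6 labels of cKO and cWT may or may not be exchanged, which was not tested and which the labels and header do not settle. As labelled, day 6 of the c set is the 1 comparison in which Irf8 was called lower in the knockout label. An exchange would turn each cKO against cWT direction of day 6, that of Irf8 included, and the values it would give stand beside the results. The header also names 3 data sets. Read from the first letter of the library names, which no source explains, all g libraries fall in one. In the c set, cWT falls in one data set and cKO in another at days 0 and 3. At day 6 all cKO libraries share the data set of the earlier cWT libraries, and the cWT libraries are split. Each c step from day 0 to day 3 thus stays within a data set. The late c steps, and cKO against cWT at days 0 and 3, do not.

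The summed level of the 45 genes was highest in 4 groups. It was 2309.7 to 2369.9 RPKM over the 3 gKO libraries of day 0, 2230.3 to 2260.2 in cKO at day 0, 2157 to 2279 in gWT at day 3 and 1736 to 2055 in cWT at day 0. At day 6 the sums were 348 to 444 RPKM in cKO, 425 to 494 in gWT, 542 to 649 in gKO and 735 to 747 in cWT. At day 3 those of gKO (558 to 615) and cKO (593 to 625) lay below cWT at day 6. The timing differed between the genotypes. In gWT, 44 of 45 genes had their highest group mean at day 3. In gKO and in cKO all 45 had it at day 0. In cWT it was at day 0 for 29 and at day 3 for 16. In bulk RNA fewer cycling cells and less RNA per cell cannot be told apart.

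**Figure D1:**
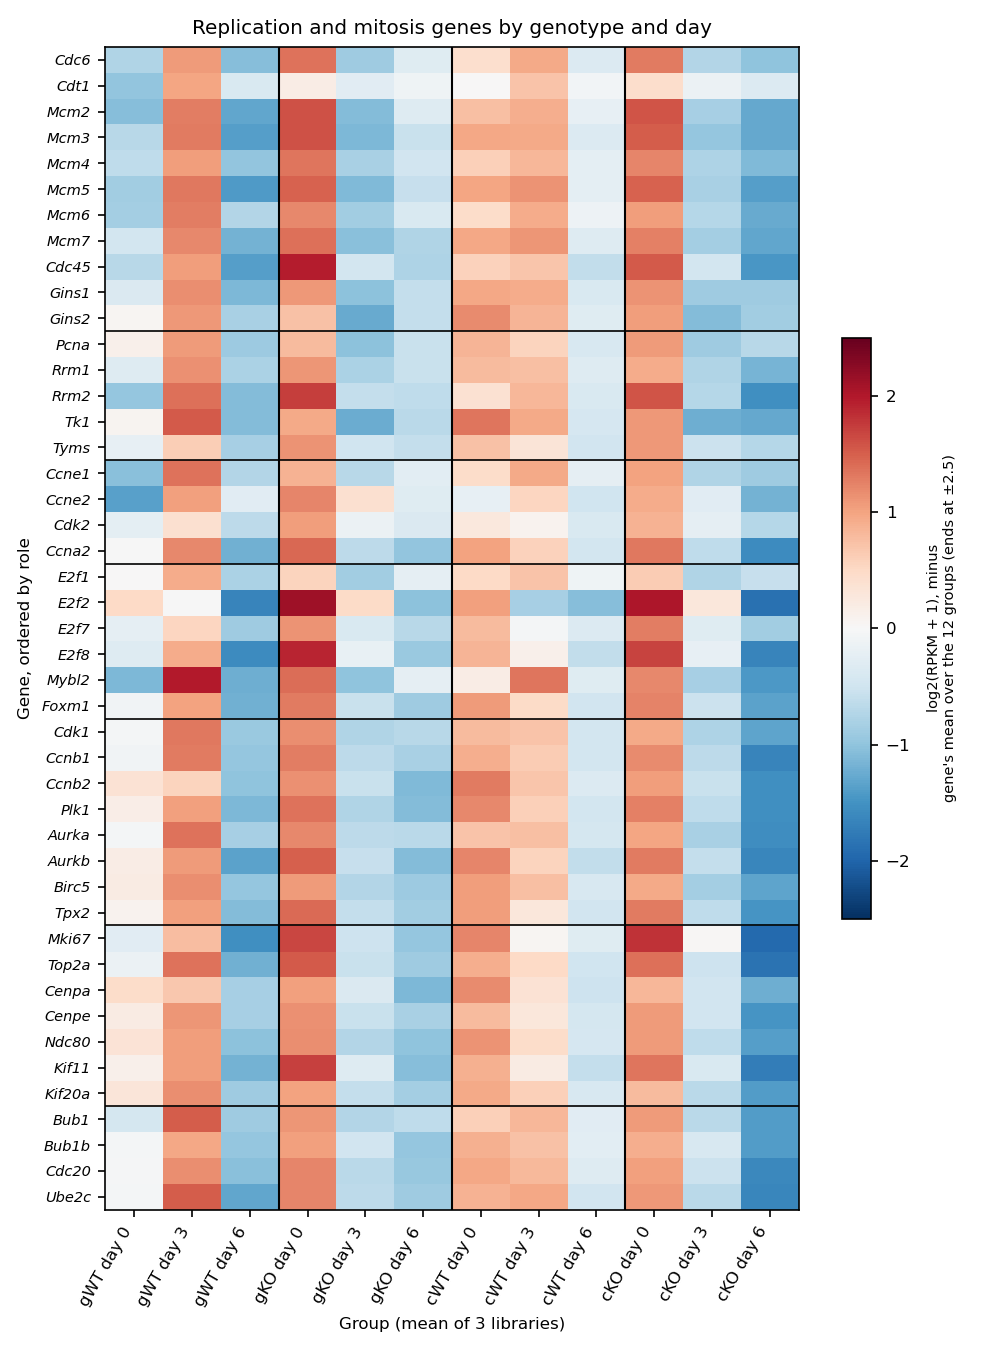
Mean log2(RPKM + 1) of each of the 45 genes (rows, ordered by role, lines between roles) in the 12 groups (columns, 3 libraries each), as the difference from the gene's own mean over the groups. The gWT column of day 3 and the gKO and cKO columns of day 0 are red, and the columns of day 6 are pale or blue in all 4 genotypes.

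Between gKO and gWT the direction turned from day to day. At day 0 all 45 genes were called higher in gKO, with a median log2 change of 1.38, where 49% of all genes were called higher and their median change was 0.16. The largest change was that of Rrm2, a subunit of the enzyme that makes deoxynucleotides (2.68 ± 0.11, limma adjusted p = 2.85e-19), and the smallest that of E2f1 (0.55 ± 0.07, limma adjusted p = 1.3e-08). At day 3, 44 of 45 were called lower in gKO and 1 higher (median -1.84), beside 46.5% of all genes called lower and 32.6% higher and an all-gene median of -0.11. Mybl2, which encodes the B-MYB activator of mitotic genes, changed most (-2.99 ± 0.08), and E2f2 was the single gene higher in gKO (0.49 ± 0.07, limma adjusted p = 8.7e-07). The 3 gKO and 3 gWT libraries did not overlap for any of the 45 genes at day 0 or at day 3, and of all genes 79.4% and 84.9% did not overlap.

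At day 6, 29 genes were called higher in gKO, 1 lower and 15 not, with a median of 0.26, and 24.7% of all genes were called higher and 25.3% lower (all-gene median 0.00). The changes were small, and none reached 2-fold. Of the 26 genes of the replication side 23 were higher and none lower (median 0.45), and of the 19 mitotic genes 6 were higher and 1 lower (median 0.12). Mybl2 led (0.99 ± 0.08), followed by the helicase genes Mcm2 (0.98) and Mcm5 (0.83). Cenpa, the centromeric histone H3 variant, was the 1 gene called lower (-0.29 ± 0.09, limma adjusted p = 0.00971), a call that was lost without gKO replicate 3 (-0.21, limma adjusted p = 0.0752). Libraries of gKO and gWT did not overlap for 28 of the 45 genes and for 58% of all genes.

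Lists of genes that mark cell types or states also differed between the same libraries. A list of 12 granulocyte and progenitor genes summed to 7258 to 8363 RPKM in gKO and 673 to 859.9 in gWT at day 0, with 10 of 12 higher in gKO and 2 lower, and the myeloperoxidase gene Mpo at 1686 ± 37.7 and 47.3 ± 5.82 RPKM (SD, n = 3). At day 3 the sums were 705 to 843 and 90.2 to 217 RPKM, higher in gKO while the 45 genes were lower, and at day 6 they were 111 to 132 and 23.3 to 25.5 RPKM. Of 11 macrophage genes tested, 10 were lower in gKO at day 0 (sums of the list 7376 to 8355 against 22319 to 24925 RPKM). All 12 osteoclast genes were higher in gKO at day 3 (23248 to 24323 against 3784 to 5687 RPKM). Stromal genes summed to 96.97 to 105 RPKM in gKO and 11.6 to 12.5 in gWT at day 0. Of 15 tested, 8 were higher in gKO and none lower, with the fibronectin gene Fn1 at 4.03 ± 0.42 and the smooth muscle actin gene Acta2 at 1.49 ± 0.40. Col3a1, Dcn and Pdgfrb were among those not called, and Lum, Pdgfra and Thy1 did not pass the filter. Of all genes 49% were called higher in gKO at day 0, which the stromal count is near, and 3535 of 11863 lower. The share of all genes called higher in gKO at day 3 was 32.6%. At day 3 the stromal sums were 59.1 to 76.4 and 57.9 to 90.7 RPKM, and at day 6 95.5 to 185 and 38.3 to 157. B cell genes, 5 of them tested, summed to at most 81.2 RPKM in any library. The part of these lists in the differences of the 45 genes was not tested.

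Across the days, gWT rose and then fell. From day 0 to day 3, 44 of 45 genes rose and E2f2 fell (-0.50 ± 0.07), with a median of 1.25 against 48.4% of all genes called higher, 35% called lower, and an all-gene median of 0.13. Mybl2 rose most (3.12 ± 0.08, limma adjusted p = 8.26e-24). From day 3 to day 6 all 45 fell, each by at least 2-fold (median -2.16), where 47.9% of all genes were called lower (all-gene median -0.14). Mybl2 fell most (-3.21 ± 0.08) and Cdk2, the kinase of the E and A cyclins, least (-1.05 ± 0.05). At day 6 as against day 0, 39 genes were lower, 3 higher and 3 not called (median -0.87, with 45.3% of all genes lower and 36.6% higher). The 3 above their day 0 level were the cyclin E genes Ccne2 (1.07 ± 0.08) and Ccne1 (0.31 ± 0.09) and the licensing factor gene Cdt1 (0.62 ± 0.06), and E2f2 was the lowest (-2.15 ± 0.07).

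In gKO the fall came at the first step. All 45 genes fell from day 0 to day 3 (median -1.91, against 53.9% of all genes called lower and an all-gene median of -0.23), from -2.73 ± 0.08 for the helicase gene Mcm3 to -0.48 ± 0.06 for Cdt1. From day 3 to day 6, 16 genes rose, 21 fell and 8 were not called (median -0.18, against 59.3% of all genes called in either direction). At day 6 all 45 were below day 0 (median -1.98, 54.7% of all genes lower), E2f2 most (-3.14 ± 0.07) and Cdt1 least (-0.30 ± 0.06).

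The difference between the gKO and gWT steps was itself tested. For the step from day 0 to day 3 all 45 genes had a lower change in gKO (median difference -3.24, where 49.5% of all genes were called lower and 81.8% in either direction), from -5.52 ± 0.12 for Mybl2 to -1.15 ± 0.11 for E2f2. For the step from day 3 to day 6, 44 of 45 had a higher change in gKO (median 2.09, 41.6% of all genes and 74.8% in either direction), from 3.98 ± 0.12 for Mybl2 to 0.59 ± 0.11 for Ccne2, and E2f2 was not called (0.15 ± 0.11).

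**Figure D2:**
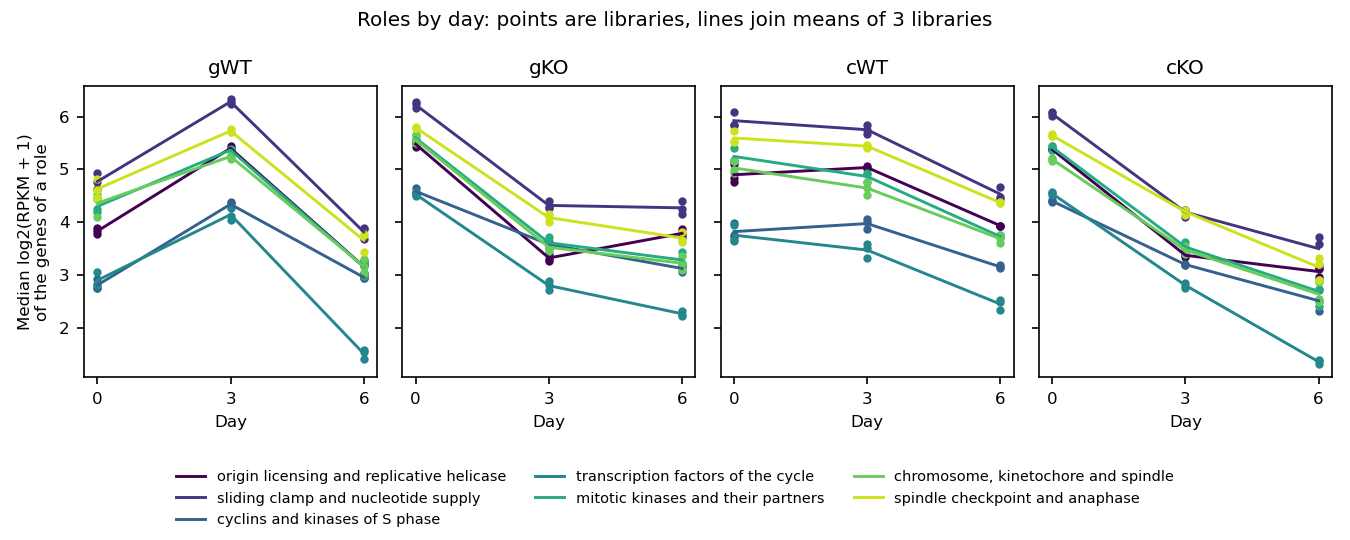
Median log2(RPKM + 1) over the genes of each of the 7 roles, by day, in a panel for each genotype; points are libraries and lines join the means of 3 libraries. All 7 lines peak at day 3 in gWT and fall from day 0 to day 3 in gKO and cKO, and in gKO the licensing line alone turns up again at day 6.

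Among the licensing and helicase genes, Mcm6, a subunit of the MCM helicase, had the highest mean level. In gWT Mcm6 stood at 20.3, 15.3 and 16.9 RPKM at day 0, 82.1, 80.2 and 74.8 at day 3, and 20.1, 18.9 and 17.9 at day 6. In gKO it stood at 76.3, 75.3 and 73.6 RPKM at day 0, 16.7, 17.4 and 17.2 at day 3, and 24.3, 26.5 and 22.4 at day 6. Day 3 was the high point in gWT and day 0 in gKO, and the gKO libraries of day 6 all lay above those of day 3. The values of Mcm6 in cWT were 41.4, 40.7 and 51.04 RPKM at day 0, 63.7, 58.9 and 62.5 at day 3, and 29.5, 29.3 and 29.4 at day 6. Those in cKO were 66.05, 68.3 and 68.1 RPKM at day 0, 18.9, 18.1 and 20.3 at day 3, and 11.6, 14.9 and 12.2 at day 6. The 3 cKO libraries of day 6 were the lowest of all 36 for this gene. All 11 genes of the role were higher in gKO than in gWT at day 0 (median 2.05) and all 11 lower at day 3 (median -2.20), the largest medians of the 7 roles in both comparisons. Of these genes Cdt1, the MCM loader whose protein is degraded in S phase, moved least, with group means over a log2 range of 1.98, and Cdc45, part of the active helicase, moved most, over 3.42.

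Pcna, the sliding clamp, had the highest level of all 45 genes on the per-length scale. Its values in gWT were 161, 175 and 184 RPKM at day 0, 338, 345 and 315 at day 3, and 86.5, 82.3 and 82.2 at day 6. Its values in gKO were 261, 293 and 265 RPKM at day 0, 75.2, 81.4 and 74.3 at day 3, and 108, 120.0 and 95.8 at day 6. The gKO libraries of day 3 were the lowest of all 36, those of gKO at day 6 lay above them without overlap, and gWT peaked at day 3. Pcna stood in cWT at 267, 262 and 332 RPKM at day 0, 263, 205 and 231 at day 3, and 116, 115 and 126 at day 6. In cKO it stood at 332, 324 and 330.3 RPKM at day 0, 85.2, 83.4 and 85.5 at day 3, and 85.7, 104 and 105 at day 6. The cKO libraries of day 6 all lay above those of day 3, but the change was not called (0.20 ± 0.09). The other genes of the role, Rrm1 and Rrm2 (ribonucleotide reductase), Tk1 (thymidine kinase) and Tyms (thymidylate synthase), rose from day 0 to day 3 in gWT and fell in gKO, with Rrm2 at 2.35 ± 0.11 and -2.30 ± 0.11.

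Ccna2 (cyclin A) was the highest of the S phase cyclins and kinases. It stood in gWT at 28.9, 22.01 and 24.6 RPKM at day 0, 60.8, 59.8 and 57.2 at day 3, and 12.1, 10.2 and 9.28 at day 6. It stood in gKO at 70.7, 72.3 and 67.9 RPKM at day 0, 15.7, 17.4 and 14.6 at day 3, and 12.2, 13.4 and 11.4 at day 6. The order of the days was day 3, day 0, day 6 in gWT and day 0, day 3, day 6 in gKO, with no overlap between days in either. In cWT the values of Ccna2 were 48.5, 49.8 and 57.05 RPKM at day 0, 38.5, 35.3 and 40.7 at day 3, and 18.6, 18.9 and 16.8 at day 6. In cKO they were 64.6, 65.996 and 64.7 RPKM at day 0, 15.4, 15.9 and 16.3 at day 3, and 6.59, 9.45 and 7.69 at day 6. Day 6 was the lowest day in both. Ccne1 (cyclin E1), which acts at entry into S phase, was 1 of the 3 genes called lower at day 0 than at day 6 in gWT. Its gWT values were 2.75, 2.26 and 2.09 RPKM at day 0, 17.2, 17.8 and 15.3 at day 3, and 3.44, 3.12 and 2.904 at day 6. Its gKO values were 11.3, 11.96 and 11.6 RPKM at day 0, 3.42, 3.17 and 3.22 at day 3, and 4.97, 4.81 and 4.57 at day 6. Each gKO library of day 6 lay above each of day 3, and the rise was called (0.44 ± 0.09, limma adjusted p = 0.000152). In cWT, Ccne1 stood at 8.03, 7.54 and 10.2 RPKM at day 0, 13.9, 10.8 and 12.2 at day 3, and 4.68, 4.74 and 5.34 at day 6. In cKO it stood at 13.3, 12.9 and 12.8 RPKM at day 0, 3.12, 3.31 and 2.86 at day 3, and 2.33, 3.19 and 2.73 at day 6. Here cWT peaked at day 3 and cKO at day 0, and the cKO libraries of days 3 and 6 overlapped. The partner gene Ccne2 did not rise with Ccne1 at the late gKO step but fell (-0.71 ± 0.08).

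The 6 transcription factors moved unevenly, their group means covering log2 ranges from 1.80 for E2f1 to 3.98 for E2f2. E2f1, an activator of S phase genes, had the values 13.01, 13.8 and 13.7 RPKM at day 0, 27.4, 26.6 and 25.6 at day 3, and 7.54, 7.58 and 6.83 at day 6 in gWT. In gKO it had 20.5, 21.1 and 19.2 RPKM at day 0, 6.63, 7.34 and 6.796 at day 3, and 11.1, 12.8 and 10.5 at day 6. The gKO libraries of day 3 overlapped the gWT libraries of day 6, and gKO was higher at day 6 than at day 3 (0.65 ± 0.07). In cWT its values were 19.02, 17.97 and 21.1 RPKM at day 0, 24.8, 21.2 and 22.6 at day 3, and 11.6, 12.2 and 13.4 at day 6. In cKO they were 21.9, 20.7 and 22.2 RPKM at day 0, 7.398, 7.86 and 7.44 at day 3, and 8.795, 7.995 and 9.19 at day 6, and E2f1 was the 1 of the 45 genes called higher at day 6 than at day 3 there (0.17 ± 0.07, limma adjusted p = 0.0303). With libraries rescaled to the same sum, none of the 45 was called higher at that step. With 1 library left out, 0 to 2 were.

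Mybl2 had the largest change at both gWT steps. In gWT it stood at 2.49, 2.01 and 2.24 RPKM at day 0, 29.3, 27.6 and 24.6 at day 3, and 2.21, 2.14 and 1.81 at day 6. In gKO it stood at 18.1, 17.9 and 17.2 RPKM at day 0, 2.52, 2.77 and 2.32 at day 3, and 4.81, 5.401 and 4.95 at day 6. The gWT libraries of day 3 were the highest of all 36, those of days 0 and 6 overlapped, and gKO fell between days 0 and 3 and was higher again at day 6. In cWT Mybl2 had 6.49, 6.28 and 8.71 RPKM at day 0, 17.8, 16.5 and 16.3 at day 3, and 4.58, 5.09 and 4.52 at day 6. In cKO it had 15.4, 15.1 and 15.5 RPKM at day 0, 2.82, 2.81 and 3.35 at day 3, and 1.47, 1.704 and 1.65 at day 6. The peak lay at day 3 in cWT and at day 0 in cKO, with no overlap between days in either.

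E2f2 went its own way. Its values in gWT were 8.53, 7.55 and 7.31 RPKM at day 0, 5.74, 5.23 and 4.65 at day 3, and 1.03, 0.881 and 1.04 at day 6, falling at each step. In gKO they were 26.3, 25.8 and 26.5 RPKM at day 0, 7.99, 8.23 and 6.87 at day 3, and 2.101, 2.13 and 2.002 at day 6, also falling at each step but from a higher level at day 0. In cWT they were 10.9, 10.8 and 13.2 RPKM at day 0, 2.34, 2.32 and 2.81 at day 3, and 1.72, 2.13 and 2.14 at day 6. In cKO they were 24.1, 23.4 and 25.4 RPKM at day 0, 6.43, 6.55 and 6.798 at day 3, and 0.703, 0.733 and 0.721 at day 6, and this last group mean was the lowest of the 12. At day 3 both knockout labels were above their wild-type labels, by 0.49 ± 0.07 in the g set and 1.12 ± 0.07 in the c set, and no other of the 45 genes was called higher in those comparisons. E2f7 and E2f8, atypical E2F repressors, followed the larger group in gWT, rising to day 3 (0.76 ± 0.08 and 1.25 ± 0.09).

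**Figure D3:**
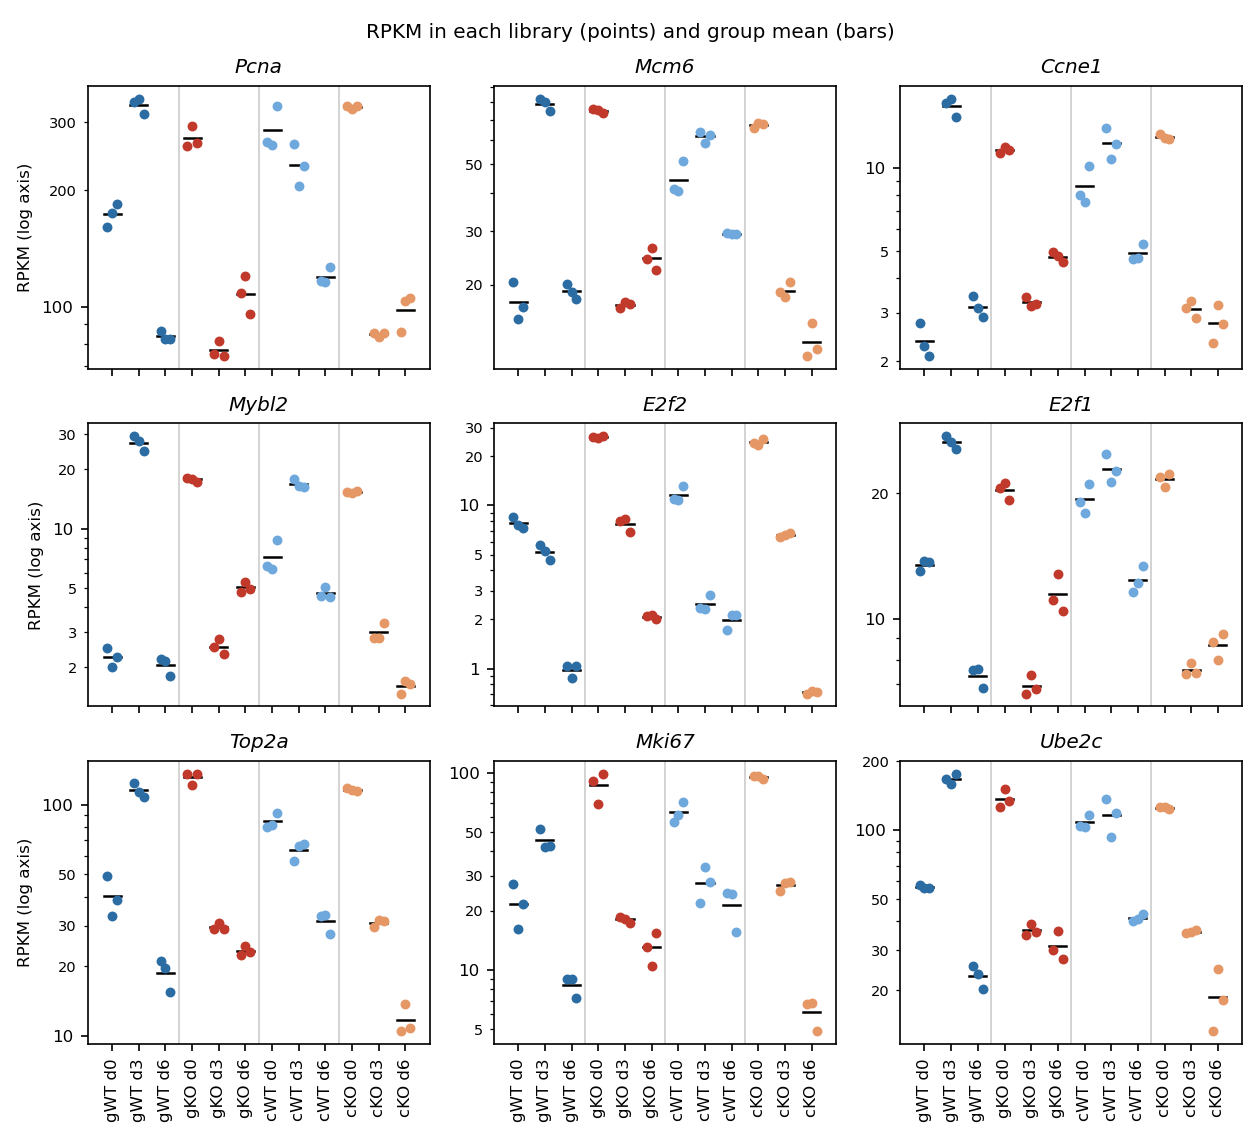
RPKM on log axes in each of the 36 libraries (points, 3 to a group, bars at the group mean) for 9 of the genes. Most peak in gWT at day 3 and in gKO and cKO at day 0, while E2f2 falls from day 0 on in all 4 genotypes, and the Mybl2 libraries of days 0 and 6 overlap in gWT.

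Ccnb2 (cyclin B2) was the highest of the mitotic kinases and partners. Its gWT values were 39.7, 35.9 and 40.4 RPKM at day 0, 44.9, 43.6 and 45.3 at day 3, and 14.9, 14.6 and 13.96 at day 6. Its gKO values were 64.8, 71.2 and 65.3 RPKM at day 0, 21.2, 20.9 and 17.7 at day 3, and 13.1, 15.3 and 12.02 at day 6. The gWT rise was small, and the gKO values fell at both steps, with a change of -0.54 ± 0.08 at the second. In cWT the values were 74.1, 73.4 and 78.3 RPKM at day 0, 54.4, 42.9 and 50.3 at day 3, and 23.3, 24.3 and 22.7 at day 6. In cKO they were 64.1, 62.9 and 62.1 RPKM at day 0, 20.4, 19.8 and 19.7 at day 3, and 8.37, 11.5 and 9.303 at day 6. Day 0 was the highest in both. All 8 genes of the role rose from day 0 to day 3 in gWT (median 0.96) and fell afterwards (median -2.17); at the early step Aurka, the kinase of spindle poles, rose by 1.42 ± 0.11 and Cdk1, the kinase that starts mitosis, by 1.36 ± 0.09.

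Top2a (topoisomerase II alpha), which untangles sister chromosomes, had the values 49.1, 32.9 and 38.8 RPKM at day 0, 124, 114 and 108 at day 3, and 21.1, 19.6 and 15.5 at day 6 in gWT. In gKO it had 135, 122 and 136 RPKM at day 0, 29.1, 30.8 and 29.1 at day 3, and 22.4, 24.5 and 23.1 at day 6. Days did not overlap in gWT or in gKO. In cWT it had 80.02, 81.9 and 92.3 RPKM at day 0, 57.005, 66.04 and 67.6 at day 3, and 32.9, 33.3 and 27.7 at day 6. In cKO it had 118, 116 and 114 RPKM at day 0, 29.6, 31.6 and 31.5 at day 3, and 10.5, 13.7 and 10.8 at day 6. The cKO libraries of day 6 were the lowest of the 36. Mki67, the gene of the proliferation marker Ki-67, stood at 27.3, 16.2 and 21.6 RPKM at day 0, 52.1, 41.9 and 42.8 at day 3, and 8.97, 9.04 and 7.22 at day 6 in gWT. In gKO it stood at 91.1, 69.3 and 99.1 RPKM at day 0, 18.6, 18.2 and 17.4 at day 3, and 13.2, 10.5 and 15.4 at day 6. Its SE (0.18 for a log2 change) was the largest of the 45 genes, and gKO fell from day 3 to day 6 (-0.46 ± 0.18, limma adjusted p = 0.0266). In cWT it stood at 56.6, 61.4 and 71.3 RPKM at day 0, 22.003, 33.2 and 28.03 at day 3, and 24.6, 24.2 and 15.5 at day 6. In cKO it stood at 96.1, 95.9 and 92.9 RPKM at day 0, 25.1, 27.6 and 28.01 at day 3, and 6.76, 6.81 and 4.91 at day 6. At day 3 the cWT and cKO libraries overlapped and Mki67 was not called (-0.03 ± 0.18), alone among the 45 genes, while at day 6 they did not overlap.

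Ube2c, the ubiquitin-conjugating enzyme of the anaphase-promoting complex, was the highest of the checkpoint and anaphase genes. In gWT it had 57.9, 56.1 and 55.8 RPKM at day 0, 166, 159 and 176 at day 3, and 25.5, 23.7 and 20.4 at day 6. In gKO it had 126, 152 and 133 RPKM at day 0, 34.8, 39.1 and 35.8 at day 3, and 30.04, 36.5 and 27.4 at day 6. The gKO libraries of days 3 and 6 overlapped and the change was not called (-0.23 ± 0.13). In cWT it had 105, 103 and 116 RPKM at day 0, 136, 93.2 and 119 at day 3, and 40.2, 40.8 and 43.1 at day 6. In cKO it had 126, 126 and 124 RPKM at day 0, 35.5, 35.9 and 36.9 at day 3, and 13.3, 24.9 and 18.2 at day 6. Days 0 and 3 overlapped in cWT. The other genes of the role encode the checkpoint kinases Bub1 and Bub1b and the activator Cdc20, and all rose to day 3 in gWT, Bub1 most (1.95 ± 0.10).

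The 2 sides of the cycle parted from day 3 to day 6 in gKO. On the replication side 16 of 26 genes rose and 8 fell (median 0.32), and on the mitotic side 0 of 19 rose and 13 fell (median -0.28). Of all genes 26% rose and 33.3% fell, with a median of -0.03. Of the 11 licensing genes 10 rose, led by Mcm2 (0.77 ± 0.08) and the GINS subunit gene Gins2 (0.66 ± 0.10), and Cdc45 fell (-0.32 ± 0.07). The rest of the 16 were Pcna, Rrm1, Tk1, Ccne1, E2f1 and Mybl2, the last with the largest rise (0.77 ± 0.08, limma adjusted p = 4.63e-09). Of the fallers, E2f2 was the lowest (-1.49 ± 0.07), followed by Cenpa (-0.75) and the spindle motor gene Kif11 (-0.74). In gWT both sides fell over these days, with medians of -2.11 and -2.19.

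**Figure D4:**
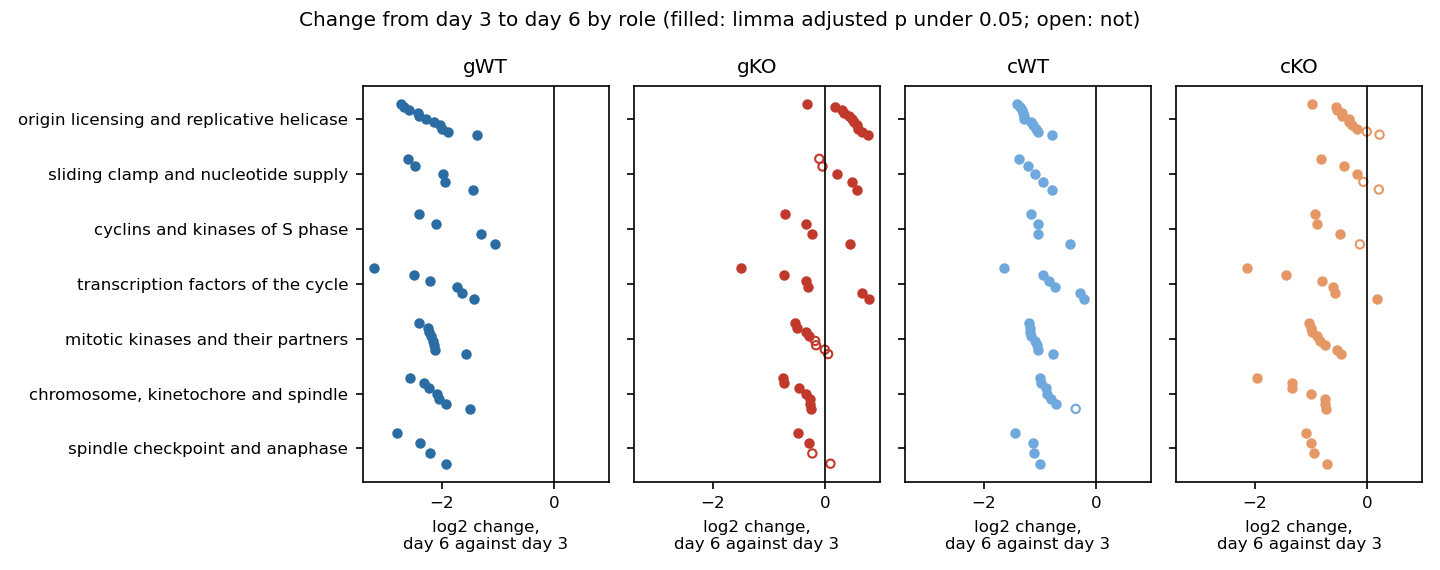
log2 change from day 3 to day 6 of each of the 45 genes (points) by role, in a panel for each genotype; filled points have a limma adjusted p under 0.05. In gKO 10 of 11 licensing genes lie right of 0 and no mitotic gene is called there, while in gWT all 45 lie left of 0.

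Further genes of the same pathways, from lists that hold none of the 45, are given beside them. Of 46 other replication genes, 23 rose and 1 fell in gKO from day 3 to day 6 (median 0.18). Uhrf1, which takes part in the copying of DNA methylation behind the fork, stood at 0.75 ± 0.10. The origin recognition gene Orc2 stood at 0.70 ± 0.05. Of 61 other mitosis genes, 1 rose and 40 fell (median -0.33), with the spindle gene Nusap1 at -0.84 ± 0.09 and the kinetochore gene Nuf2 at -0.68 ± 0.09. Of all genes 26% rose and 33.3% fell at this step. In gWT from day 0 to day 3, 46 of 46 replication and 59 of 61 mitosis genes rose, beside 48.4% of all genes. Uhrf1 stood there at 2.72 ± 0.10 and the mitotic kinase gene Pbk at 1.80 ± 0.10. Between gKO and gWT, 46 and 59 of them were higher in gKO at day 0 (49% of all genes), and 45 and 60 lower at day 3 (46.5% of all genes). A list of 15 partners and repressors of E2F moved less evenly, with 10 higher and 2 lower in gKO at day 0. Its E2F partner Tfdp1 stood at 2.43 ± 0.07 and the pocket protein gene Rbl1 at 1.45 ± 0.08. Upstream, the cyclin D1 gene Ccnd1 had means of 9.77, 116 and 8.002 RPKM at days 0, 3 and 6 in gWT and 52.9, 2.85 and 25.8 in gKO. It belongs to a list of 13 genes (cyclins D, their kinases Cdk4 and Cdk6, cell cycle inhibitors and Myc). Of these, 3 were higher and 7 lower in gKO at day 3, which is near the shares of all genes (32.6% and 46.5%).

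In the c set the genotypes differed little at day 0 and widely at day 3. At day 0, 29 genes were called higher in the libraries labelled cKO, 2 lower (Ccnb2 and Cenpa) and 14 not, with a median of 0.30, against 36.2% of all genes called higher and 31.7% lower. Rrm2 was the highest (1.21 ± 0.11) and Cenpa the lowest (-0.35 ± 0.09). With data set as a term 18 were called, all higher. That term rests on the libraries of cWT at day 6 alone, the only group that holds libraries of 2 data sets. At day 0 macrophage genes summed to 5901 to 6041 RPKM in cKO and 11153 to 11584.5 in cWT. Stromal genes summed to 66.2 to 82.0 RPKM in cKO and 9.86 to 13.3 in cWT at day 0. At day 3, 43 were lower in cKO and E2f2 was higher (median -1.29, 44.2% of all genes lower and 32.8% higher, all-gene median -0.07), with Mybl2 at -2.16 ± 0.08. All 12 osteoclast genes were higher in cKO at day 3 (sums 17706 to 17985 against 5656 to 7047 RPKM). Granulocyte and progenitor genes summed to 954 to 1149 and 311 to 386 RPKM there (10 of 12 higher, 2 lower). Macrophage genes summed to 6318 to 7263 and 3289 to 3727 (7 of 11 higher, 3 lower) and stromal genes to 77.9 to 210.0 and 17.9 to 95.04 (8 of 15 higher, 1 lower). The part of these lists was not tested at day 0 or day 3 either. At days 0 and 3 the data set and the genotype cannot be told apart by comparing libraries within a day.

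At day 6 all 45 genes were called lower in the libraries labelled cKO (median -0.99, 40.4% of all genes lower, all-gene median -0.11). With the day 6 labels exchanged all 45 would be higher. Mki67 had the largest difference (-1.63 ± 0.18, limma adjusted p = 1.2e-08) and Tyms the smallest (-0.23 ± 0.07, limma adjusted p = 0.00451), which was not called after quantile scaling between libraries (-0.08, limma adjusted p = 0.39). Against the cWT library of the same data set alone all 45 were also below 0 (median -0.92), as they were against the other 2 cWT libraries (median -0.98). Stromal genes summed to 546 to 753 RPKM in cWT and 250.2 to 315 in cKO at day 6, with 12 of 15 tested lower in cKO and 1 higher, Col3a1 at -1.92 ± 0.33 and the stromal proteoglycan gene Lum listed at 0 in cWT and at 0.00677 RPKM in cKO. Granulocyte and progenitor genes summed to 167 to 215 and 39.6 to 51.4 RPKM there, and to 1571 to 1625 and 8029 to 8515 at day 0. The part of these lists was not tested.

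The libraries labelled cKO fell at both steps. All 45 genes fell from day 0 to day 3 in cKO (median -1.78, 50.2% of all genes lower), Mcm3 most (-2.48 ± 0.08) and Cdt1 least (-0.59 ± 0.06). From day 3 to day 6, 39 fell and 1 rose (median -0.73, 36.7% of all genes lower and 20.4% higher). All cKO libraries of day 3 fall in another data set than those of day 6, so day and data set cannot be told apart at this step. E2f2 fell most (-2.14 ± 0.07), and Gins2 had the highest value without being called (0.22 ± 0.10, limma adjusted p = 0.0626). With the day 6 labels of the c set exchanged, 23 genes would rise and 4 fall at this step (median 0.21). The side medians as labelled were -0.45 for replication and -0.95 for mitosis, and the 5 genes not called were Gins1, Gins2, Pcna, Tk1 and Ccne1. At day 6 all 45 were below day 0 (median -2.53, 53.2% of all genes lower), with E2f2 at -3.88 ± 0.07 and Cdt1 at -0.78 ± 0.06.

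In cWT the first step was mixed. From day 0 to day 3, 11 genes rose, 23 fell and 11 were not called (median -0.18, with 39.8% of all genes higher and 38.9% lower), and 7 against 26 when each library was rescaled to the same sum. The 11 that rose as deposited were Cdc6, Cdt1, Mcm2, Mcm4, Mcm6, Rrm2, Ccne1, Ccne2, E2f1, Mybl2 and Bub1, from the replication side but for the last. Mybl2 had the largest rise (1.14 ± 0.08) and E2f2 the largest fall (-1.86 ± 0.07). From day 3 to day 6, 44 of 45 fell (median -1.05, 42.8% of all genes lower), Mybl2 most (-1.64 ± 0.08) and E2f2 least (-0.22 ± 0.07; -0.12 and not called with libraries rescaled to the same sum), and Mki67 was not called (-0.36 ± 0.18). At day 6 against day 0, 44 were lower (median -1.28, 47.3% of all genes lower), E2f2 at -2.07 ± 0.07, and Cdt1 was not called (-0.08 ± 0.06).

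Differences between steps were tested in the c set as well. From day 0 to day 3, 44 of 45 genes had a lower change in cKO than in cWT (median -1.56, 41.9% of all genes and 72.9% in either direction), from -3.18 ± 0.12 for Mybl2 to -0.48 ± 0.13 for Cenpa. In the step from day 3 to day 6, 24 were higher in cKO and 5 lower (median 0.38, with 34.6% and 34.5% of all genes, 69.1% in either direction), from 1.38 ± 0.14 for Gins2 to -1.92 ± 0.11 for E2f2. With data set as a term, which rests on cWT at day 6 alone, 15 were higher and 1 lower. With libraries rescaled to the same sum the counts were 18 and 10. With the day 6 labels exchanged 44 would be higher and 1 lower (median 2.33).

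The wild-type labels of the sets also differed from each other. The change from day 0 to day 3 was higher in gWT than in cWT for all 45 genes (median 1.53, 39.1% of all genes and 61.2% in either direction), from 2.23 ± 0.25 for Mki67 to 0.69 ± 0.10 for E2f1. The change from day 3 to day 6 was lower in gWT for all 45 (median -1.11, 40.3% of all genes and 65.4% in either direction), from -1.94 ± 0.25 for Mki67 to -0.27 ± 0.11 for Ccne2, which was not called after quantile scaling (-0.02). With the day 6 labels of the c set exchanged, 15 would be lower and 2 higher (median -0.22), with Mki67 not called (-0.31) and Ccne2 at 0.41. The g and c sets fall in different data sets, so the set and the data set cannot be told apart here. At day 0 the summed level of the 45 genes was 832 to 962 RPKM in gWT and 1736 to 2055 in cWT, and the granulocyte and progenitor list summed to 673 to 859.9 and 1571 to 1625 RPKM.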

How the data were processed

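RNA-seq values of 36 libraries were taken from 1 deposited table. Per the file headers, the authors mapped reads with TopHat and computed RPKM per gene with Partek, after combining 3 data sets. Per the submitters' processing notes, CASAVA 1.8.4, bcl2fastq 2.17.1, TopHat2 2.1.0 and deepTools were also used, with build mm9. For strand, gene models and reads shared between genes the setting is not given in the sources used here. A count of alignments per library, from the deposited sample sheet, served only to show depth. Read counts of single genes were not used, so the counting error of low RPKM values is unknown.

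RPKM was transformed to log2(RPKM + 1), which understates changes of low genes, without further scaling. The filter asked for RPKM of 1 or more in 3 or more libraries. A limma 3.58.1 model (R 4.3.3, trend and robust moderation) estimated 12 group means from the 36 libraries together (24 residual df), with 24 contrasts (18 of groups, 6 of differences between steps). Contrasts that share a group share its libraries. P-values were adjusted by Benjamini-Hochberg within each contrast. Pearson r between log2 libraries of a group was 0.992 to 0.999, and no libraries were identical. Data were simulated for gKO against gWT at day 3 with 11863 genes, of which 11663 were unchanged. There 24 of 50 genes changed 1.2-fold and 49 of 50 changed 1.5-fold were called, and 9 of the 11663 unchanged genes (0.0772%). In the deposited values of this comparison 3862 genes were called higher and 5522 lower. Calling with that many genes changed was not tested. The rule for pairing by replicate number was that all 3 correlations of deviations exceed 0.1. It was met in 2 of 18 comparisons (gKO against gWT at day 3, and gWT day 3 against day 0). The labels state no pairing, and the rule does not establish it.

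The 45 genes, the 9 gene lists (other replication, other mitosis, E2F partners, cyclin D and inhibitors, stromal, granulocyte and progenitor, osteoclast, macrophage and B cell genes) and the tests were chosen with earlier results of these data known. Values in every library are given for the highest gene of each role and for Mki67, Ccne1, Mybl2 and E2f2. In each comparison the highest and lowest change are named; other genes were named after their values were seen. In lists, the genes named come from the 2 largest changes with a group mean of at least 5 RPKM, in some lists only 1 of them. Lum, far below that level, and genes listed as not called were named apart from this rule. Promoter letters come from RefSeq (GRCm38.p6). Tables and figures used Python with pandas and matplotlib. Alternatives were pseudocount 0.1, no filter, quantile scaling, rescaling to the same sum (TPM), no trend and no robust moderation, only the groups compared, data set as a term, a replicate block, leaving out each library and, chosen after seeing the data, 1 data set alone at day 6 and exchanged day 6 labels in the c set.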

Additional observations from a re-analysis of the deposited data

Results flagged for a closer look

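The step from day 0 to day 3 differed between gKO and gWT for 45 of the 45 genes by the test of the difference itself (limma adjusted p under 0.05; 81.8% of all genes), from a log2 difference of -5.52 for Mybl2 to -1.15 for E2f2. The step from day 3 to day 6 differed for 44 genes (74.8% of all genes), from 3.98 for Mybl2 to 0.59 for Ccne2. Between cKO and cWT the early step differed for 44 genes (72.9% of all genes), from -3.18 for Mybl2 to -0.48 for Cenpa, and the late step for 29 of 45 (69.1% of all genes, so the share of the 45 is no higher), from 1.38 for Gins2 to -1.92 for E2f2. Between gWT and cWT the early step differed for 45 genes (61.2% of all genes), from 2.23 for Mki67 to 0.69 for E2f1, and the late step for 45 (65.4% of all genes), from -0.27 for Ccne2 to -1.94 for Mki67. These results were singled out because the effect of a step differed between genotypes or between the g and c sets. The late steps of the c set also rest on day 6 labels that may be exchanged. In those late steps the data set changes with the day. Within the early step of cKO or of cWT it does not change, though cKO and cWT lie in different data sets there. The libraries of gWT and cWT also lie in different data sets. The part of the data set was not tested beyond the fit with data set as a term, which rests on cWT at day 6 alone.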

How the results depend on the processing

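Of 362 recomputed counts of the 45 genes, 360 stayed within 1.5 times of the reported count. The other 2 came with data set as a term: 18 genes in place of 31 for cKO against cWT at day 0, and 16 in place of 29 for the difference of the late steps in the c set. The cause was not tested. With 1 library left out, counts ranged from 21 to 33 (30 reported) for gKO against gWT at day 6, 25 to 32 (31) for cKO against cWT at day 0, 31 to 36 (37) for gKO from day 3 to day 6, 31 to 33 (34) for cWT from day 0 to day 3, and 26 to 30 (29) for the late step difference of the c set; the others moved by at most 2. The replicate block changed no count by over 1.5 times: both comparisons that met the rule for pairing kept 45. Of 724 recomputed changes of named genes, 698 kept their call and direction, 20 lost the call, 4 gained it, and 2 changed sign: Cdt1 in cWT from day 0 to day 6 (-0.08, not called) was 0.029 after quantile scaling, and with 1 library left out it ranged from -0.16 to 0.018, the highest without cWT day 0 replicate 3. Quantile scaling moved the median of all genes by over 0.1 in several comparisons (gKO day 3 against day 0 from -0.23 to -0.08) and their split of higher and lower calls by over 10 points in 9 comparisons (at most 27 points, cKO against cWT at day 6, 2976 higher and 2785 lower in place of 1569 and 4788); rescaling to the same sum did so in 5 (at most 21.1 points). Counts over all genes moved with data set as a term to 5112 from 8063 (cKO against cWT, day 0), 4075 from 6357 (day 6, where the 2 groups alone gave 4165 and the one data set alone, chosen after seeing the data, 4021), 2818 from 6768 (cKO day 6 against day 3) and 3249 from 8201 (late step difference). With the day 6 labels of cKO and cWT exchanged, also chosen after seeing the data and not counted above, all 45 genes would be higher in cKO at day 6 (Tyms 0.23, Mki67 1.63), 27 in place of 40 would be called in cKO from day 3 to day 6 (23 higher), 45 in place of 29 in the late step difference of the c set, and 17 in place of 45 between gWT and cWT (Ccne2 0.41, Mki67 -0.31). Without counts per gene, depth limits the low genes Cdc6 and E2f7 most.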
